A study of Mus musculus with 6 samples.

Results

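Cells pushed in opposite directions for the same long noncoding RNA were compared directly: Neuro-2a cells overexpressing lncPim1 (2 libraries) against Neuro-2a cells in which lncPim1 was reduced by RNA interference (2 libraries). These are 4 of the 6 libraries of the series. The other 2, from cells labelled wild type, were used to see where control lay relative to the manipulated groups. Neuro-2a is a mouse neuroblastoma cell line that can extend neurites, and no other treatment is named in the labels. The labels name no empty vector, no scrambled RNA, no dose and no time after transfection. Whether paired libraries of a group are separate cultures is not stated either, and p-values here measure only how far these libraries differ, possibly for technical reasons. Of the 21878 rows of the expression table, 10721 averaged 1 FPKM or more across all 6 libraries and entered the fit. FPKM is fragments per kilobase of transcript, scaled to the mapped fragments of the library. The row just inside this limit was Rab30 (mean 1.0002 FPKM) and the one just outside was Tfcp2l1 (0.99945).

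Long noncoding RNAs are transcripts that are not translated, and many act on genes near their own locus or on distant ones through bound proteins. Overexpressing and silencing the same RNA lets genes be placed in an order. A gene that follows the RNA's level would lie lowest at one end, highest at the other and in between in control cells. The groups also differ in method, since the ends used overexpression or RNA interference and control is labelled wild type. An effect of the method cannot be told apart here from an effect of the level. Pim1, the gene after which lncPim1 is named, encodes a kinase with known roles in cell survival and cell cycle progression. No row of the table carries the name of lncPim1, so its own level was not analysed here and the labels could not be checked against it. Neuroblastoma and sympathoblast markers were present in all groups, with summed values of 584.7 and 597.3 FPKM in the knockdown libraries, 754.9 and 780.5 in control and 676.2 and 753.2 under overexpression. Summed FPKM over all rows was between 272528 and 305463 per library. The knockdown libraries had the lowest sums, and their part in the differences below was not tested. Read depth is not given by FPKM values.

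Overexpression and knockdown differed at 4345 of the 10721 tested genes, which is 40.5% (limma, Benjamini-Hochberg adjusted p under 0.05). Of these, 3013 genes (28.1% of those tested) were higher under overexpression and 1332 (12.4%) were higher in knockdown. Most differences were small. The median size among called genes was 0.300 on the log2 scale in the first set and 0.350 in the second, and only 29 and 32 genes reached 1. The share of calls that were higher under overexpression was 69.3% on the deposited scale and 53.1% after scaling by median log ratio or after quantile normalization. The median log2 difference over all tested genes was 0.07 as deposited and 0.01 after either scaling. Without knockdown 1 the genes higher in knockdown numbered 789, and without overexpression 2 they numbered 880.

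Control cells lay close to the overexpression end of this contrast. With the knockdown mean set to 0 and the overexpression mean to 1 for each called gene, the control mean had a median position of 1.01, with quartiles of 0.77 and 1.24. The medians were 1.02 for genes higher under overexpression and 0.99 for genes higher in knockdown. Of the called genes, 3573 were also called between control and knockdown (a call made in 46.2% of all tested genes), and 95 between overexpression and control (1.54% of tested genes). The control mean lay between the other 2 means in 2024 called genes, 18.9% of those tested and 46.6% of those called. In 893 called genes, 8.33% of those tested, all 6 libraries stood in order with no overlap between neighbouring groups: 633 rose from knockdown through control to overexpression, and 260 fell. Among all tested genes, called or not, the control mean lay between in 35.5%, and all 6 libraries stood in such order in 9.90%. Each step shares the control libraries with the other, so a shift in the control means moves both steps in opposite directions.

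**Figure D1:**
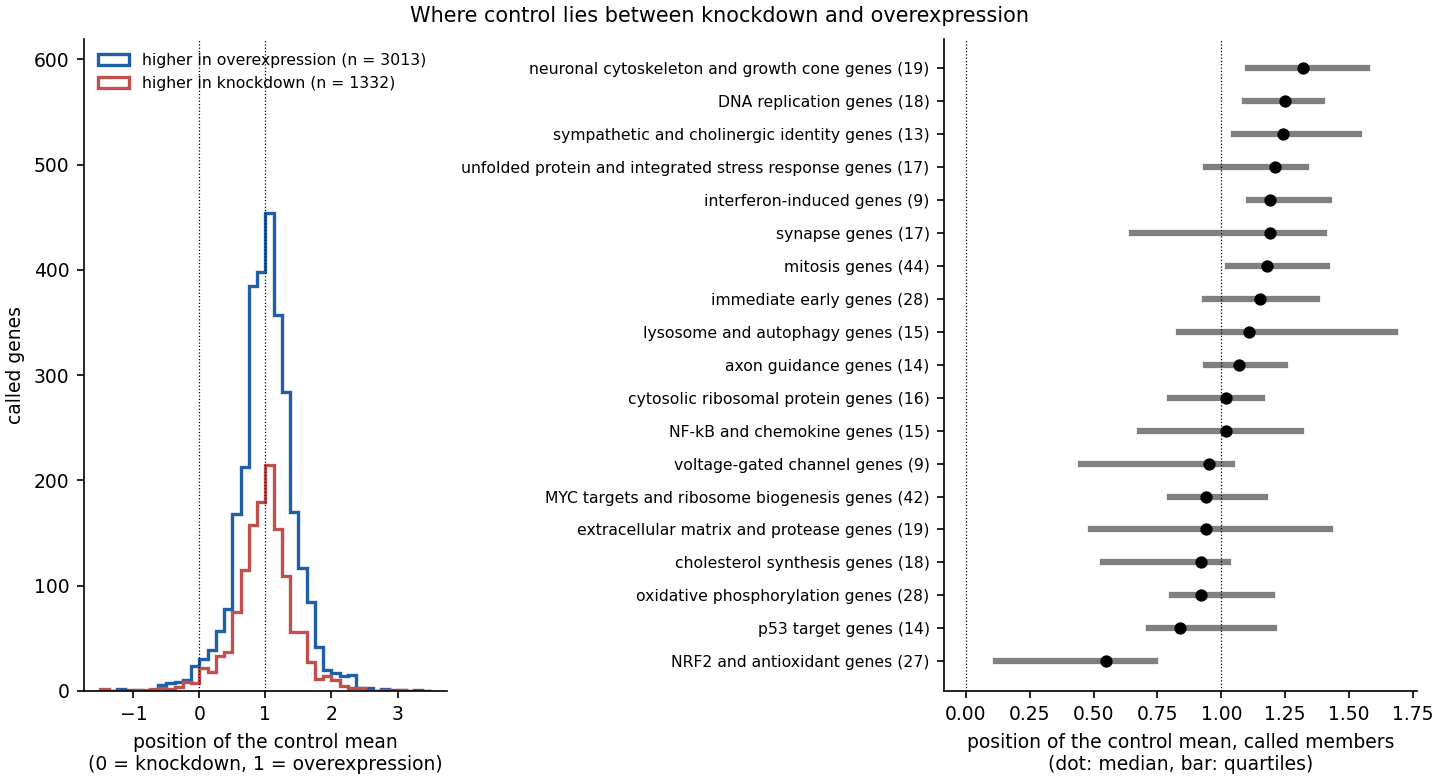
Left, the number of called genes (y axis) by the position of the control mean (x axis, 0 at the knockdown mean and 1 at the overexpression mean), for 3013 genes higher under overexpression and 1332 higher in knockdown, values beyond the axis being placed in its end bins. Right, the median (dot) and quartiles (bar) of that position over the called members of each gene list with at least 9 called members (number in brackets); the NRF2 and antioxidant list has the lowest median, 0.55.

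Requiring that each step be called by itself left 8 genes in order knockdown, control, overexpression, 0.0746% of those tested. All 8 were highest under overexpression, and no gene was called at both steps in the falling direction. They were Prkcdbp, Pnlip, Pgd, Gm364, Col4a1, Bnip2, Txnrd1 and Pkm. Their control positions ran from 0.31 (Txnrd1) to 0.59 (Pgd). The number depended on single libraries: it was 1 without control 1, 2 without control 2 and 3 without either overexpression library. Prkcdbp stayed in the set in every alternative fit that held control libraries, except the one restricted to a mean of 5 FPKM, which does not test it. Scaling by median log ratio left 5 genes, among them Prkcdbp, Pnlip, Pgd and Gm364, and removed Col4a1, Bnip2, Txnrd1 and Pkm. That scaling and quantile normalization also added Pygl as a falling gene.

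**Figure D2:**
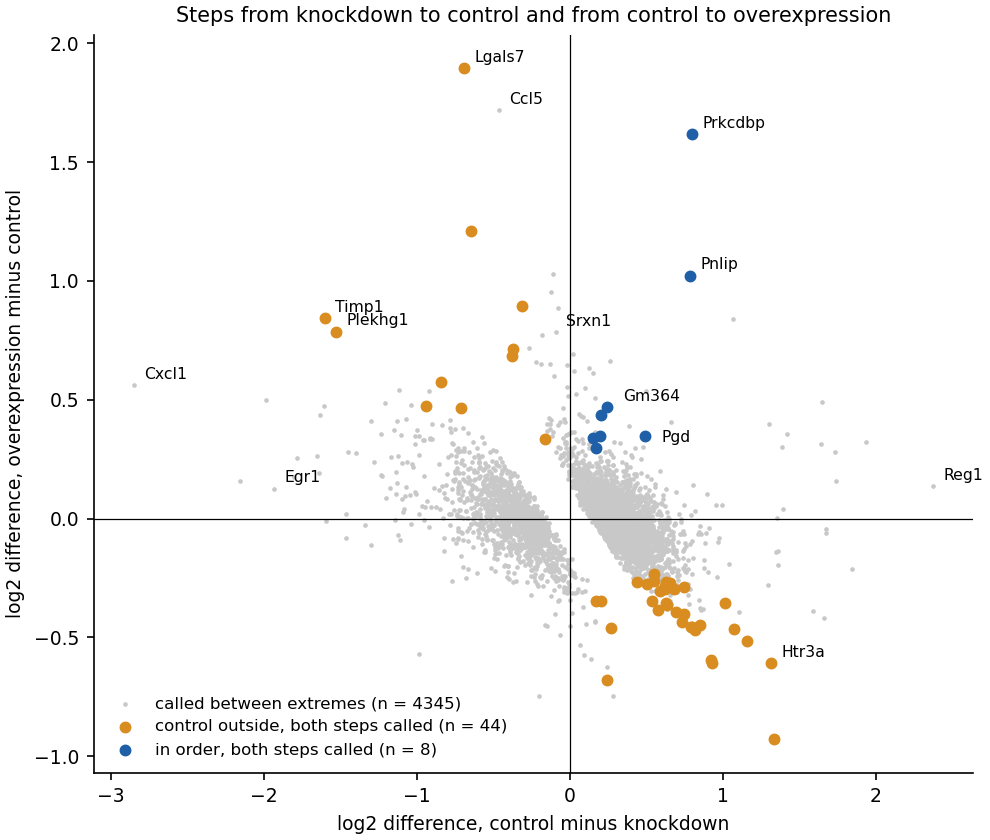
Each point is a gene called between overexpression and knockdown (n = 4345), with the log2 difference control minus knockdown on the x axis and overexpression minus control on the y axis. Blue points are the 8 genes in order with both steps called, orange points are the 44 genes with both steps called and control outside; the empty diagonal band is where overexpression and knockdown do not differ enough to be called.

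Prkcdbp, also named Cavin3, encodes a cavin, a coat protein of the membrane pits called caveolae. It had the largest difference of all genes named here apart from transcripts of the digestive tract described below. It measured 0.750 and 0.907 FPKM in the knockdown libraries, 2.37 and 2.00 in control and 8.76 and 8.75 under overexpression. No library of one group reached the range of another, and the overexpression mean was 10.6 times the knockdown mean. The log2 difference between overexpression and knockdown was 2.42 ± 0.09 (SE, limma adjusted p 1.1e-05). The step from control to overexpression was 1.62 ± 0.09 (adjusted p 0.000335) and the step from knockdown to control 0.80 ± 0.09 (adjusted p 0.000287). The gene lies at chr7:105480083-105482300 on the minus strand (GRCm38), and 22.5% of its exon bases are shared with Gm45667, annotated on the opposite strand. The counting step's strand setting was not given in the sources used here. Without it, reads of the pair cannot be told apart. Of the 6 tested genes of the caveola list, 3 were higher under overexpression (28.1% of all tested genes were) and 0 in knockdown. After scaling by median log ratio, and without overexpression 2, 1 was. The other cavins had other patterns. Ptrf (cavin 1) was not called, with adjusted p 0.971. Sdpr (cavin 2) was higher under overexpression by 0.19 ± 0.06 (adjusted p 0.0262) and measured 28.5 and 28.2 FPKM in knockdown, 42.4 and 42.9 in control and 31.0 and 34.0 under overexpression, so that control was highest.

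Pnlip encodes pancreatic lipase, which digests dietary fat. It measured 0.0269 and 0.128 FPKM in knockdown, 0.957 and 0.758 in control and 2.24 and 3.38 under overexpression, with a log2 difference of 1.81 ± 0.15 (limma adjusted p 0.000217). It belongs to the digestive tract transcripts that were near 0 in both knockdown libraries, and its levels were low in all groups. Pnlip passed the filter on low values only through its overexpression libraries. Its difference is therefore partly set by the filter and is given as a description. Gm364, a predicted protein-coding gene on the X chromosome, measured 35.5 and 36.1 FPKM in knockdown, 41.8 and 43.2 in control and 57.8 and 60.6 under overexpression. Its groups did not overlap, and its log2 difference was 0.71 ± 0.05 (adjusted p 0.000129).

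The next genes in order belong to sugar and redox metabolism, the basement membrane and signalling. Pgd encodes 6-phosphogluconate dehydrogenase, an enzyme of the pentose phosphate pathway that makes NADPH. It measured 36.7 and 41.2 FPKM in knockdown, 53.9 and 56.3 in control and 70.7 and 70.1 under overexpression, a log2 difference of 0.84 ± 0.06 (limma adjusted p 0.00014). Its steps were of similar size, 0.49 ± 0.06 from knockdown to control and 0.35 ± 0.06 from control to overexpression. Txnrd1, thioredoxin reductase, measured 126 and 131 FPKM in knockdown, 139 and 147 in control and 183 and 179 under overexpression (0.49 ± 0.05, adjusted p 0.0004). Pkm encodes the pyruvate kinase that makes the last ATP-yielding step of glycolysis. It measured 196 and 210 FPKM in knockdown, 225 and 232 in control and 279 and 282 under overexpression (0.47 ± 0.05, adjusted p 0.000483). Col4a1, a collagen chain of basement membranes, measured 22.8 and 22.7, 25.5 and 27.2, and 37.0 and 34.9 FPKM in the same order of groups (0.64 ± 0.06, adjusted p 0.000261). Its partner chain Col4a2 also stood in order in all 6 libraries, from 62.5 to 77.1 FPKM, and differed by 0.27 ± 0.05 between the ends (adjusted p 0.00334). Bnip2, which binds BCL2, measured 5.97 and 6.38, 6.96 and 7.47, and 9.12 and 9.79 FPKM. Both of its steps were close to the threshold, with adjusted p values of 0.0443 and 0.0496. In each of these genes, from Pgd to Bnip2, the groups did not overlap.

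**Figure D3:**
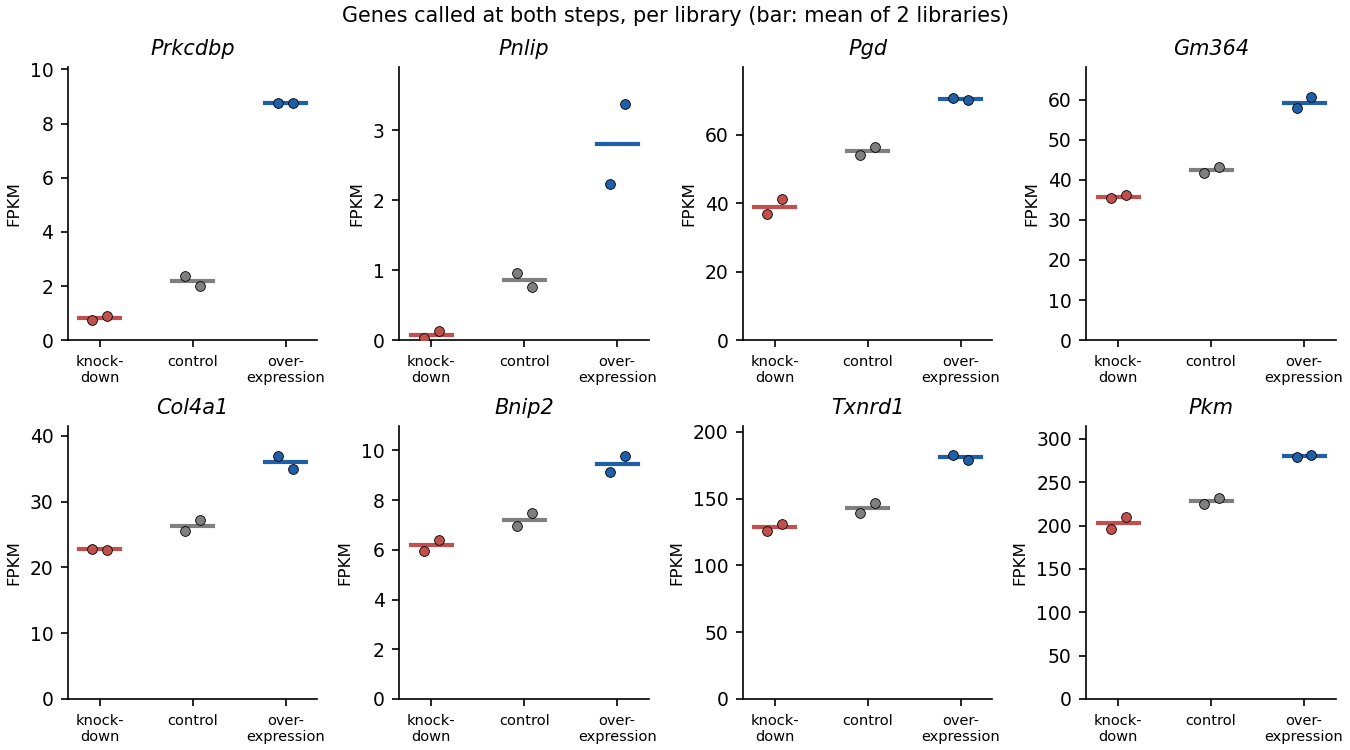
FPKM (y axis, from 0) in each library of the 8 genes called at both steps, for knockdown, control and overexpression (x axis); points are libraries and bars the mean of 2. Prkcdbp reaches 8.75 and 8.76 FPKM under overexpression against 0.750 and 0.907 in knockdown, and in every panel the 3 groups are apart.

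Pgd and Txnrd1 belong to a list of 40 NRF2 and antioxidant genes. Beside NRF2 targets it holds Nfe2l2 and Keap1 themselves and general antioxidant enzymes such as Sod1 and Gpx1. NRF2 (gene Nfe2l2) is the transcription factor that binds antioxidant response elements when its inhibitor KEAP1 releases it. Its targets make glutathione, recycle thioredoxin, supply NADPH and store iron. Of the 37 members tested, 26 (70.3%) were higher under overexpression than in knockdown, where 28.1% of all tested genes were, 1 was higher in knockdown and 10 were not called. The median log2 difference over the 37 was 0.33, against 0.07 over all tested genes. Scaling by median log ratio gave 24 and 2, and quantile normalization 21 and 2. Among the 27 called members the control mean had a median position of 0.55. That median was 0.44 after scaling by median log ratio, 0.42 after quantile normalization and 0.51 to 0.61 when 1 library was left out. In 12 of the 27 all 6 libraries stood in order without overlap, as they did in 20.6% of all called genes. Between overexpression and control alone, 7 members were called, all higher under overexpression, where 1.54% of all tested genes were called in either direction.

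Promoter windows of 3 members are shown because the antioxidant response element is the sequence through which NRF2 is known to act. The sequences are RefSeq promoter windows of build GRCm38.p6, from 250 bases before to 50 after a gene start, written 5′ to 3′ on the gene's strand. Capitals mark the core TGACNNNGC, the AP-1 motif TGACTCA and, in Txnrd1, also the motif TTTGAA, on either strand. Srxn1 is at chr2:152105274-152105573 (plus strand), Gclm at chr3:122245307-122245606 (plus strand) and Txnrd1, the second of 3 annotated windows, at chr10:82858956-82859255 (plus strand).
Srxn1: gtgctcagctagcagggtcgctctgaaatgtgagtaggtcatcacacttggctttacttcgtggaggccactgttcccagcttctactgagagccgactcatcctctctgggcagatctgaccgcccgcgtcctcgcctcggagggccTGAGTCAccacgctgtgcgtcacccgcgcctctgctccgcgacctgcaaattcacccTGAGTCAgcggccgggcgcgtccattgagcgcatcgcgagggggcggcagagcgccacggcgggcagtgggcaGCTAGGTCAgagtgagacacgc
Gclm: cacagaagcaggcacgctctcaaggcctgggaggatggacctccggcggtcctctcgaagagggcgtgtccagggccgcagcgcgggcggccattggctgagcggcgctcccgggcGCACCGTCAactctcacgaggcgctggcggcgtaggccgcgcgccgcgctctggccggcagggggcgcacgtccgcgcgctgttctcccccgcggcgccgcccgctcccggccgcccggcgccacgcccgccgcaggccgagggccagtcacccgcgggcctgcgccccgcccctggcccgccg
Txnrd1: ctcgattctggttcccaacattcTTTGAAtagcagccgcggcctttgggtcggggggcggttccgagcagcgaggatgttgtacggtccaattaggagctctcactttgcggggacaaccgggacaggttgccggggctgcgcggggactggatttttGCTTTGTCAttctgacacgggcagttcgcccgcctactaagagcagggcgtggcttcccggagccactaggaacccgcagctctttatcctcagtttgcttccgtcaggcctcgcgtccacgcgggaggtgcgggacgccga
Of the 37 members, 32 had a window in the table, and 10 of these (31.2%) held the core, against 17.2% of the 8674 tested genes with a window. The AP-1 motif, which overlaps the core when it is followed by GC, was in 18.8% of the members' windows and in 4.35% of all. These shares describe the list, called or not. Among all genes called higher under overexpression with a window, 18.2% held the core and 3.92% the AP-1 motif, near the shares of all tested genes. A match is a description of these letters, not a binding site or a cause.

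Members of the NRF2 list took different positions between the ends. In 9 called members the control mean lay under 0.25 of the way from knockdown to overexpression, or beyond the knockdown end. Srxn1, sulfiredoxin, which repairs oxidized peroxiredoxins, measured 18.2 and 18.8 FPKM in knockdown, 16.9 and 17.8 in control and 31.2 and 29.9 under overexpression. Control and knockdown lay side by side and overexpression stood apart, with a log2 difference from knockdown of 0.69 ± 0.05 (limma adjusted p 0.000173). Osgin1, a growth inhibitor induced by oxidative stress, measured 3.13 and 3.47 FPKM in knockdown, 2.73 and 3.26 in control and 8.28 and 6.14 under overexpression (0.92 ± 0.12, adjusted p 0.00103). Nqo1, the quinone reductase often used as a readout of NRF2, measured 7.96 and 9.75, 8.33 and 9.71, and 14.6 and 14.1 FPKM (0.65 ± 0.10, adjusted p 0.0015). Blvrb (biliverdin reductase B) and Cat (catalase) had the same arrangement, with differences of 0.50 ± 0.06 and 0.25 ± 0.06. These 5 were called between overexpression and control but not between control and knockdown.

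A further 11 called members had control between 0.25 and 0.75 of the way. Gclm, the modifier subunit of the enzyme that starts glutathione synthesis, measured 38.2 and 36.6 FPKM in knockdown, 49.2 and 52.3 in control and 57.9 and 57.9 under overexpression (0.62 ± 0.05, limma adjusted p 0.000217). Me1, malic enzyme, which also makes NADPH, measured 27.7 and 24.5, 32.3 and 35.2, and 41.0 and 41.2 FPKM (0.64 ± 0.07, adjusted p 0.00047). The ferritin subunits, which store iron, followed the same order: Ftl1 ran from 1372 to 2090 FPKM over the libraries (0.54 ± 0.06) and Fth1 from 806 to 1316 (0.56 ± 0.09). Gsta4, a glutathione transferase that removes lipid aldehydes, was low, at 0.442 and 0.265 FPKM in knockdown, 0.741 and 1.08 in control and 1.64 and 1.89 under overexpression, yet in order (1.03 ± 0.12, adjusted p 0.000645). Gsta4 passed the filter on low values only through its overexpression libraries. Its difference is therefore partly set by the filter and is given as a description. In the remaining 7 called members control lay at or near the overexpression end. Prdx1 (peroxiredoxin 1) measured 144 and 143 FPKM in knockdown, 198 and 200 in control and 189 and 204 under overexpression. The regulators themselves were not called between the ends: Nfe2l2 differed by -0.04 ± 0.06 and Keap1 by 0.14 ± 0.06. Gstm5, a mu-class glutathione transferase, was the member higher in knockdown, by 0.30 on the log2 scale from 46.7 and 37.9 to 33.1 and 34.7 FPKM under overexpression. No member was called in that direction without overexpression 1, without overexpression 2 or without knockdown 1.

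**Figure D4:**
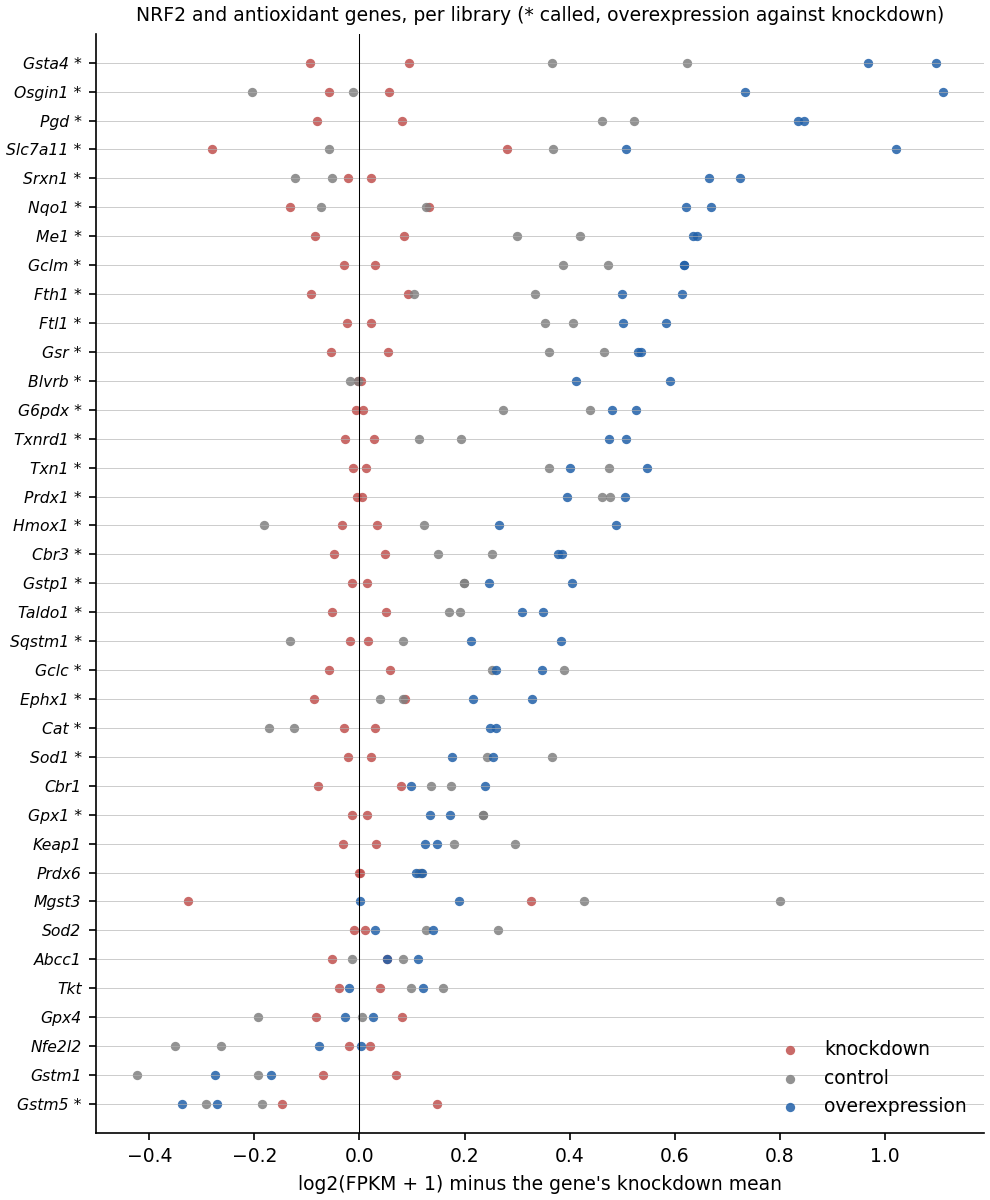
Each row is a tested gene of the NRF2 and antioxidant list, and each point a library, placed by log2(FPKM + 1) minus the gene's knockdown mean (x axis); an asterisk marks genes called between overexpression and knockdown. Control points lie beside knockdown for Srxn1, Osgin1 and Blvrb, in between for Pgd, Gclm and Me1, and beside overexpression for Prdx1 and Txn1.

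Immediate early genes were mostly higher in knockdown. They are switched on within minutes of a growth factor or stress signal, and encode transcription factors, phosphatases and RNA-binding proteins that shape the later response. Of 36 tested, 27 (75.0%) were higher in knockdown than under overexpression, where 12.4% of all tested genes were. Jund was the 1 member higher under overexpression, by 0.15 ± 0.05, and it was not called under either scaling. The list's median log2 difference was -0.41, against 0.07 over all tested genes, and the control mean had a median position of 1.15 among called members. Egr1, a zinc finger factor induced by ERK signalling, measured 47.4 and 43.7 FPKM in knockdown, 10.5 and 11.9 in control and 11.6 and 12.9 under overexpression. The knockdown libraries were 3.71 times the overexpression mean, and overexpression overlapped with control (log2 difference -1.81 ± 0.08, limma adjusted p 2.17e-05). Junb, an AP-1 subunit, measured 81.9 and 85.8, 37.0 and 38.2, and 41.6 and 39.4 FPKM in knockdown, control and overexpression (-1.03 ± 0.05). Fos, its dimer partner, measured 12.1 and 10.7, 6.43 and 6.08, and 4.65 and 5.48 FPKM (-1.03 ± 0.09), so that all 6 libraries fell in order. Btg2, an antiproliferative gene, did so too, at 7.20 and 7.96, 4.56 and 4.16, and 3.42 and 3.59 FPKM (-0.93 ± 0.08), as did Ier2 (-0.68 ± 0.06) and Ier5l (-0.76 ± 0.05). These 4 were all the members in order among 28 called, where 20.6% of all called genes were in order. No member was called between overexpression and control.

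NF-kB is a family of dimeric factors held in the cytoplasm by IkB proteins, and it drives chemokine genes. Of 22 genes of this pathway tested, 9 (40.9%) were higher in knockdown, where 12.4% of all tested genes were. The 6 (27.3%) higher under overexpression are near the 28.1% of all tested genes, so they are given as single genes only. Over all 22 the median log2 difference was -0.22, against 0.07 over all tested genes. Cxcl1, a chemokine for neutrophils, measured 35.5 and 37.0 FPKM in knockdown, 3.13 and 5.47 in control and 8.34 and 5.24 under overexpression (log2 difference -2.29 ± 0.22, limma adjusted p 0.000346). Cxcl2 measured 4.35 and 5.38, 0.368 and 0.592, and 1.46 and 0.770 FPKM (-1.49 ± 0.16), and Il6, interleukin 6, 15.0 and 16.9, 5.39 and 6.35, and 8.57 and 7.68 FPKM (-0.89 ± 0.09). Cxcl2 passed the filter on low values only through knockdown, so its difference is partly set by the filter. The IkB-like regulator Nfkbiz (-1.20 ± 0.07), the subunit gene Rel (-0.72 ± 0.09) and the inhibitor Nfkbia (-0.41 ± 0.06) were also higher in knockdown. The subunit genes Nfkb1 and Rela were higher under overexpression and in order in all 6 libraries. Nfkb1 measured 5.57 and 6.39 FPKM in knockdown, 8.41 and 7.73 in control and 9.52 and 9.05 under overexpression (0.56 ± 0.08, adjusted p 0.00106), and Rela 9.70 and 10.8, 13.8 and 13.8, and 15.5 and 14.6 FPKM (0.51 ± 0.06). The inhibitor genes Nfkbie (0.28 ± 0.07), Nfkbib (0.28 ± 0.06) and Tnip1 (0.29 ± 0.09) were higher under overexpression as well. Ccl5, a chemokine for T cells, went the other way from Cxcl1. It measured 1.04 and 1.74 FPKM in knockdown, 0.431 and 1.05 in control and 5.19 and 4.16 under overexpression (1.26 ± 0.19, adjusted p 0.00163), with knockdown and control overlapping.

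The Cxcl1 promoter window is shown for its NF-kB motif, in capitals, at chr5:90890995-90891294 on the plus strand.
Cxcl1: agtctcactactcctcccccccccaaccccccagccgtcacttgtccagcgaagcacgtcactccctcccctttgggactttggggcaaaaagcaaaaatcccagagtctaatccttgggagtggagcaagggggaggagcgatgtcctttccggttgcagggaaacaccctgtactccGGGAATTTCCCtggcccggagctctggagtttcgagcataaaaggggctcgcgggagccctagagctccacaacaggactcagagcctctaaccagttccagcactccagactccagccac
Of the 18 pathway genes with a window, 14 (77.8%) held the NF-kB motif on either strand, against 12.7% of all tested genes with a window. This describes the list, called or not. Among all genes called higher in knockdown with a window the share was 15.2%. The interferon-induced genes had 8 of 24 members (33.3%) higher in knockdown and 1 (4.17%) under overexpression, against 12.4% and 28.1% of all tested genes. Among the 8 was Dhx58, an RNA sensor partner that passed the filter only through knockdown, which partly sets its difference. It measured 2.62 and 1.93 FPKM in knockdown, 0.781 and 0.481 in control and 0.794 and 0.693 under overexpression (-0.90 ± 0.13, limma adjusted p 0.00143). The 8 became 5 without either overexpression library and 4 without knockdown 1.

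Genes of cell division were higher under overexpression than in knockdown. Of 75 mitosis genes, 44 (58.7%, against 28.1% of all tested genes) were called in that direction and 0 in the other, with a median log2 difference of 0.20. Without overexpression 2 the count was 29. After scaling by median log ratio it was 30 with 1 in the other direction, and after quantile normalization 30 with 4. Kif20a, a kinesin of cytokinesis, measured 13.4 and 13.8 FPKM in knockdown, 23.1 and 23.4 in control and 23.1 and 22.9 under overexpression (0.71 ± 0.05, limma adjusted p 0.000129). Cdc23, a protein-coding gene on the opposite strand, shares 29.3% of the exon bases of Kif20a, and the strand setting of counting was not given. Plk1, the polo kinase of mitotic entry, measured 24.3 and 22.5, 37.3 and 38.7, and 34.1 and 35.4 FPKM (0.55 ± 0.06). Cdc20, an activator of the anaphase-promoting complex, measured 23.5 and 25.0, 36.3 and 36.5, and 33.7 and 34.3 FPKM (0.47 ± 0.05). Control was at or above overexpression in all 3 genes. Aurka, the centrosomal Aurora kinase, stood in order, at 18.6 and 19.4, 25.6 and 25.2, and 27.3 and 26.6 FPKM (0.48 ± 0.05). The median control position over the 44 was 1.18. Of 63 DNA replication genes, 18 (28.6%) were higher under overexpression, a share close to that of all tested genes, and 0 in knockdown. That count was 9 without overexpression 2, 10 without knockdown 2, 9 after scaling by median log ratio and 7 after quantile normalization.

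Windows of Plk1 (chr7:122159185-122159484, plus strand) and Cdc20 (chr4:118437294-118437593, minus strand) are shown for the cell cycle homology region TTTGAA, in capitals, to which repressor complexes of the cell cycle bind.
Plk1: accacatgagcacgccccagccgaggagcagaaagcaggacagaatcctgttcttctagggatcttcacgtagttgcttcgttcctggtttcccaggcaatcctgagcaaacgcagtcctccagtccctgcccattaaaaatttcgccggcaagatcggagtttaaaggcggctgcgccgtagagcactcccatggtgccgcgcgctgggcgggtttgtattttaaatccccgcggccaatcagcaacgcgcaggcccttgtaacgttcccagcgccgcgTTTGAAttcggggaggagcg
Cdc20: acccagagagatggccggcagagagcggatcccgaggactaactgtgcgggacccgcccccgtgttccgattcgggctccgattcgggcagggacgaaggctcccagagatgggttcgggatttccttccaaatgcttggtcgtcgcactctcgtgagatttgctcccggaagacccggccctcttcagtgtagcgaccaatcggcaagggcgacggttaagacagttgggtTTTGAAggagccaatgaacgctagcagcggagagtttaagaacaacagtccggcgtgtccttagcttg
The motif was found on either strand in 43 of the 65 mitosis genes with a window (66.2%), against 13.5% of all tested genes with a window. This describes the list, called or not. Among all genes called higher under overexpression with a window the share was 14.9%, near that of all tested genes.

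In the list of MYC targets and ribosome biogenesis, 41 of 55 members (74.5%, against 28.1% of all tested genes) were higher under overexpression and 1, Odc1, the first enzyme of polyamine synthesis, was higher in knockdown. After quantile normalization these counts were 25 and 2. Ncl, nucleolin, measured 69.7 and 77.5 FPKM in knockdown, 107 and 108 in control and 108 and 107 under overexpression (0.54 ± 0.06, limma adjusted p 0.000458). Polr1a, the largest subunit of RNA polymerase I, measured 11.7 and 12.7, 16.3 and 15.9, and 17.4 and 17.2 FPKM, with all 6 libraries in order (0.47 ± 0.06). Of 73 nuclear-encoded genes of oxidative phosphorylation, 28 (38.4%, against 28.1% of all tested genes) were higher under overexpression and 0 in knockdown, with Cox6b1, a subunit of cytochrome oxidase, at 197 and 195, 309 and 299, and 268 and 302 FPKM (0.53 ± 0.06). Their direction depended on scaling, since 17 and 0 were called after scaling by median log ratio and 9 and 7 after quantile normalization, and 14 and 1 without overexpression 2. The 75 cytosolic ribosomal protein genes had 14 members higher under overexpression and 2 in knockdown as deposited, and 3 and 15 after quantile normalization, so no direction is given for them.

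Neuronal cytoskeleton and growth cone genes, which build neurites, had 18 of 30 members (60.0%, against 28.1% of all tested genes) higher under overexpression and 1, Mapt (tau), higher in knockdown. After quantile normalization the counts were 10 and 5. Among the called members the control mean had a median position of 1.32. Nefh, the heavy neurofilament subunit, measured 10.9 and 11.7 FPKM in knockdown, 24.2 and 22.8 in control and 24.4 and 24.5 under overexpression (1.05 ± 0.06, limma adjusted p 6.47e-05). Tubb3, the neuronal beta tubulin, measured 246 and 253, 397 and 388, and 313 and 337 FPKM (0.38 ± 0.05, adjusted p 0.00114), with control highest. Of 26 sympathetic and cholinergic identity genes, 9 (34.6%) were higher under overexpression and 4 (15.4%) in knockdown, near the 28.1% and 12.4% of all tested genes, and 5 and 7 after quantile normalization. Its members are therefore given as single genes. Among the transcription factors, Hand2 measured 68.3 and 72.5, 108 and 106, and 99.3 and 111 FPKM (0.57 ± 0.06, adjusted p 0.000476), and Phox2a (0.40 ± 0.08) and Gata2 (0.46 ± 0.08) were higher under overexpression as well. Th and Slc18a2 were higher in knockdown. Th, tyrosine hydroxylase, measured 11.9 and 9.32 FPKM in knockdown, 4.99 and 4.67 in control and 5.67 and 7.24 under overexpression (-0.64 ± 0.12, adjusted p 0.00439). Slc18a2, the vesicular monoamine transporter, measured 31.7 and 26.1, 20.4 and 18.2, and 16.8 and 18.0 FPKM and fell in order in all 6 libraries (-0.70 ± 0.09, adjusted p 0.000948).

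**Figure D5:**
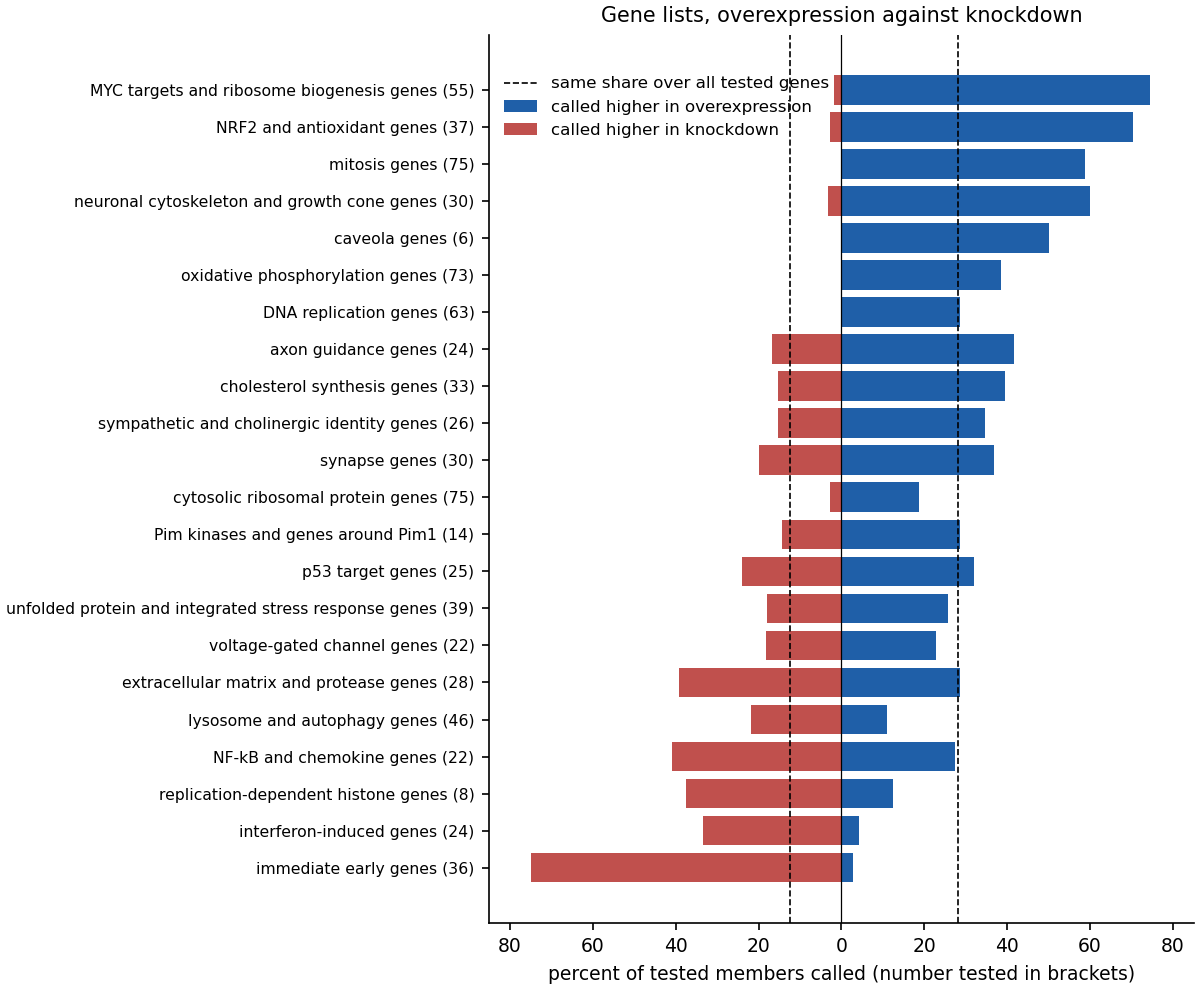
Percent of tested members (number in brackets) of each gene list called higher under overexpression (blue, to the right) or higher in knockdown (red, to the left). The dashed lines give the same shares over all tested genes, 28.1% and 12.4%. Immediate early genes reach 75.0% to the left. To the right, the MYC target and ribosome biogenesis list reaches 74.5% and the NRF2 and antioxidant list 70.3%.

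In 44 genes, 0.410% of those tested, both steps were called and control lay outside the range of the other groups. Control was highest in 33 and lowest in 11. The count was 5 without control 1, 9 without control 2, 6 without overexpression 1 and 15 without overexpression 2. Lgals7, a galectin of stratified epithelia, measured 0.932 and 1.56 FPKM in knockdown, 0.473 and 0.292 in control and 3.98 and 4.29 under overexpression (overexpression minus knockdown 1.21 ± 0.14, limma adjusted p 0.000589). Lgals7 passed the filter only through overexpression, so its difference is partly set by the filter. Timp1, an inhibitor of metalloproteinases, measured 11.8 and 11.5, 2.76 and 3.61, and 6.61 and 6.31 FPKM, with both manipulated groups above control and knockdown the higher (-0.76 ± 0.09, adjusted p 0.000733). Plekhg1, a guanine nucleotide exchange factor, had the same arrangement at 8.60 and 8.45, 2.39 and 2.22, and 4.65 and 4.75 FPKM (-0.74 ± 0.07). The ligand-gated channel genes Htr3a and Chrna3 and the membrane protease Mmp15 had control highest. Htr3a measured 7.17 and 7.96 FPKM in knockdown, 19.8 and 20.7 in control and 12.1 and 13.8 under overexpression (0.70 ± 0.08, adjusted p 0.000473). Chrna3, a nicotinic receptor subunit, measured 22.8 and 22.8, 48.8 and 45.2, and 34.8 and 38.2 FPKM (0.66 ± 0.06).

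Pim1 showed no difference between the ends. It measured 24.4 and 23.1 FPKM in knockdown, 16.2 and 18.8 in control and 23.5 and 24.1 under overexpression, a log2 difference of 0.00 with a 95% interval of -0.16 to 0.16 (limma adjusted p 0.977). Both manipulated groups were above control, by 0.43 ± 0.07 under overexpression (adjusted p 0.0294) and 0.42 ± 0.07 in knockdown (adjusted p 0.00179). An antisense gene, Gm26885, shares 14.5% of the exon bases of Pim1 (chr17:29490753-29496112, plus strand, GRCm38). Pim2 was higher in knockdown, by 0.33 ± 0.09 (adjusted p 0.0184), and lost the call in 4 of the alternative fits. Pim3 differed by -0.11 ± 0.07, with an interval of -0.27 to 0.06. Among 14 tested genes of the Pim family and of the Pim1 neighbourhood, 4 (28.6%) were higher under overexpression and 2 (14.3%) in knockdown, close to the 28.1% and 12.4% of all tested genes. After quantile normalization these counts were 3 and 4, without knockdown 1 they were 2 and 0, without overexpression 1 they were 3 and 0, and without overexpression 2 they were 2 and 0. Srsf3, a splicing factor gene of that neighbourhood, measured 72.2 and 83.2 FPKM in knockdown, 118 and 120 in control and 115 and 114 under overexpression (0.56 ± 0.07, adjusted p 0.000615).

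Several of the widest differences came from transcripts of the digestive tract, which a neuroblastoma line is not known to make. Of 46 such genes listed, 18 passed the filter on low values, and most of these did so only through the groups where they are high, so that their difference from knockdown is partly set by the filter. Of the 18, 15 were higher under overexpression (28.1% of all tested genes were) and 1, Lgals4, in knockdown (12.4%), which is given as a description. Reg1, a pancreatic secretory protein, was listed at 0 in both knockdown libraries, at 4.60 and 3.80 FPKM in control and at 4.01 and 5.50 under overexpression. Zg16, a protein of secretory granules, was listed at 0 in both knockdown libraries, at 1.86 and 2.44 FPKM in control and at 3.19 and 3.64 under overexpression. S100g, Akp3 and Rbp2, which the list did not hold but which are known from intestinal epithelium, had the same pattern, at most 0.356 FPKM in knockdown. Over the whole list of 46 genes the summed level was 33.52 and 34.41 FPKM in the knockdown libraries, 76.12 and 82.11 in control and 74.78 and 94.26 under overexpression. In each knockdown library 30 of the 46 were listed at 0, against 3 to 7 elsewhere. Pnlip, among the 8 genes in order, is part of this group. Whether these transcripts come from the cells was not tested.

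Markers of other cell types were low. Those of macrophages and microglia summed over 15 genes to 9.98 and 10.69 FPKM in knockdown, 7.916 and 7.207 in control and 6.018 and 5.233 under overexpression, with 5 to 8 of the 15 listed at 0 in each library. Of the 2 that were tested, Cd68, a lysosomal glycoprotein of macrophages, was higher in knockdown, at 3.31 and 4.31 FPKM, with 0.348 and 0.397 in control and 0.528 and 0.570 under overexpression (-1.63 ± 0.11, limma adjusted p 0.000129). Cd68 passed the filter only through knockdown, so its difference is partly set by the filter. Lyz2, the lysozyme of macrophages, measured 5.10 and 4.60, 6.96 and 6.39, and 4.48 and 4.22 FPKM in the same order of groups and was not called, with control highest. Glia markers summed to 7.459 and 6.841 FPKM in knockdown and 5.525 to 6.338 in the other libraries, and fibroblast markers to 2.723 and 2.832 in knockdown and 1.993 to 2.472 elsewhere. Epithelial markers were lower in knockdown, at 1.731 and 1.266 FPKM against 2.517 to 3.283, and erythroid markers summed to at most 0.4465. The part of such cells in the results was not tested. In bulk RNA, fewer cells of a type and less RNA per cell cannot be told apart.

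Further lists are given beside the shares of all tested genes, 28.1% higher under overexpression and 12.4% higher in knockdown. Of 33 cholesterol and fatty acid synthesis genes, 13 (39.4%) were higher under overexpression and 5 (15.2%) in knockdown, and 7 and 7 after quantile normalization. The counts were 7 and 8 without knockdown 2, and 8 and 5 without overexpression 2. Elovl6, a fatty acid elongase, stood in order in all 6 libraries, at 10.1 and 9.43 FPKM in knockdown, 13.5 and 12.6 in control and 13.7 and 15.0 under overexpression (0.51 ± 0.07, limma adjusted p 0.000991). Of 39 genes of the unfolded protein and integrated stress responses, 10 (25.6%) were higher under overexpression and 7 (17.9%) in knockdown, and 3 and 15 after quantile normalization. Ddit3 (CHOP), a death-promoting factor of those responses, measured 36.5 and 36.6, 21.9 and 24.8, and 26.2 and 26.1 FPKM (-0.47 ± 0.06), while Atf5, another factor of the same responses, measured 35.9 and 44.7, 74.9 and 73.7, and 65.0 and 66.7 FPKM (0.70 ± 0.09). Of 28 matrix and protease genes, 8 (28.6%) were higher under overexpression, among them Fn1, fibronectin (0.59 ± 0.05). In knockdown 11 (39.3%) were higher, above the 12.4% of all tested genes, among them Lama5, a laminin chain (-0.72 ± 0.09). That count was 12 after scaling by median log ratio and 11 after quantile normalization. Of 30 synapse genes, 11 (36.7%) were higher under overexpression and 6 (20%) in knockdown, but 8 and 10 after scaling by median log ratio and 8 and 8 after quantile normalization. Of 24 axon guidance genes, 10 (41.7%) and 4 (16.7%) were, and 8 and 8 after scaling by median log ratio. Nrp1, a semaphorin receptor, measured 10.4 and 11.4, 19.7 and 18.2, and 18.0 and 18.1 FPKM (0.68 ± 0.06). Of 46 lysosome and autophagy genes, 5 (10.9%) were higher under overexpression and 10 (21.7%) in knockdown. These counts were 4 and 16 after scaling by median log ratio, 1 and 16 after quantile normalization, 3 and 4 without overexpression 2, 3 and 5 without knockdown 1, and 3 and 6 without overexpression 1.

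Further genes at the edges of the contrast had control near the overexpression end or beyond it. Slc5a5, the iodide transporter, measured 2.87 and 3.51 FPKM in knockdown, 0.379 and 0.388 in control and 0.386 and 0.363 under overexpression (-1.60 ± 0.10, limma adjusted p 0.000114). B3galt4, a ganglioside galactosyltransferase, measured 2.97 and 5.49, 0.0349 and 0.253, and 0.343 and 0.198 FPKM (-2.00 ± 0.21, adjusted p 0.000441). Slc5a5 and B3galt4 passed the filter only through knockdown, where they are high, so their differences are partly set by the filter. On the other side, Trim55, a muscle ubiquitin ligase, measured 0.251 and 0.375, 3.33 and 2.98, and 2.14 and 2.08 FPKM (1.25 ± 0.09), and Shisa2, a regulator of Wnt and FGF receptors, 1.99 and 2.54, 9.85 and 7.80, and 5.68 and 7.36 FPKM (1.20 ± 0.14). Trim55 passed the filter only through control and overexpression, where it is high, so its difference is partly set by the filter. Lix1, by contrast, stood in order in all 6 libraries, with at most 2.49 FPKM in knockdown, at most 4.27 in control and at least 5.77 under overexpression (1.07 ± 0.09), but its step from control to overexpression was not called (adjusted p 0.0637).

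Gene structure differed between the called sets. The median gene span was 25.4 kb for genes higher under overexpression and 19.1 kb for genes higher in knockdown, against 23.7 kb for all tested genes. Among genes under 5 kb, 21.7% were higher under overexpression and 16.6% in knockdown. Among genes over 100 kb, 33.2% and 7.55% were. The median GC content of the longest transcript was 49.2% in the first set and 52.2% in the second.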

How the data were processed

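Total RNA of 6 Neuro-2a libraries (2 per group) was sequenced with a stranded mRNA kit, per the labels' protocols. The authors deposited 1 table of FPKM values per gene symbol and library. Trimmomatic, HISAT2, Cufflinks, HTSeq and DESeq and build mm10 were used, per the submitters' processing notes. Versions, annotation and strand setting: not given in the sources used here. Because FPKM hides read depth, no counting error can be given. In 27 rows a date replaces the symbol (19 tested).

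Values were taken as log2(FPKM + 1), which understates differences of low genes. Group means were fitted to all 6 libraries with limma 3.58.1 in R 4.3.3, with moderation along a trend with expression and 3 residual degrees of freedom. The call threshold was 0.05 on p-values adjusted by Benjamini-Hochberg over all tested genes. The scripts were checked on simulated data. The contrast, the gene lists and the rules for named genes were chosen with earlier results of these data known. Named were the 10 highest and 10 lowest log2 differences among called genes without overlap (predicted models, digestive tract genes and histones left out), the 4 list members with the smallest p in every list, as many as 10 genes called at both steps in each direction, up to 6 with control outside, and Pim1, Pim2 and Pim3. Further list members were chosen after their values were seen. Positions come from GENCODE M21 (GRCm38) and promoter windows from RefSeq. Alternatives were other pseudocounts, filters and scalings, no trend, a replicate block, only the 4 libraries, and leaving out each library.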

Additional observations from a re-analysis of the deposited data

How the results depend on the processing

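Called genes higher under overexpression numbered 3013, and 1930 after quantile normalization. Those higher in knockdown numbered 1332, then 802 with a filter at 5 FPKM and 789 to 1233 with 1 library left out. Genes in order without overlap numbered 893, and 746 to 1356 with 1 library left out, the highest without control 1. Genes called at both steps in order numbered 8, then 1 with no filter, 5 after scaling by median log ratio, 5 after quantile normalization, 4 with no expression trend, 4 with a replicate block and 1 to 7 with 1 library left out. Falling genes among them numbered 0, then 1 after scaling by median log ratio and 2 after quantile normalization. Genes with control outside numbered 44, then 2 with no filter, 29 with no expression trend, 20 with a replicate block and 5 to 35 with 1 library left out. With 1 library left out, fewer values have to stand in order without overlap. With no filter, p-values were adjusted over 17311 genes, against 10721 in the main fit. How much these settings contribute to the changes was not tested, nor was any other cause. The total of called genes stayed within 1.5 times of 4345 in all 16 other fits (3820 with the replicate block). Same-numbered libraries did not deviate together (correlations over genes of -0.12, 0.01 and -0.21). Whether libraries of different groups were prepared together cannot be told from these correlations. A crossed replicate block, chosen after seeing the data, gave 81 genes with control outside and 11 in order. Of 162 genes, those the rule names and the others given above, 152 were called, 135 of them in every fit that tested them, and no called difference changed sign. The 17 that lost the call in some fit include Jund (10 fits), Tnip1 (6), Sdpr (5), Gstm5 (4), Pim2 (4), Mapt (3), Nfkbie (2), Nfkbib (1), Col4a2 (1) and Phox2a (1). With 2 libraries a group, leaving 1 out assumes that the lone library varies like the others.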
